A study of Homo sapiens with 13 samples.

Results

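The 9 tubulin genes described here are TUBA1A, TUBA1B and TUBA1C, which encode α-tubulins, TUBB, TUBB2A, TUBB2B, TUBB3 and TUBB6, which encode β-tubulins, and TUBG1, which encodes γ-tubulin. They were taken by gene name from the tables of mRNA 3' ends of 9 libraries, and they are 9 of 14575 genes and 168 of 211765 3' mRNA isoforms in those tables. An isoform is 1 genome position at which reads of the 3' READS method end, and all isoforms lie up to 5 kb downstream of the stop codon of their gene. The cells were of the human embryonic kidney line HEK293 (Flp-in TREX) and carried an integrated plasmid for α-amanitin resistant Rpb1, the largest subunit of Pol II. The resistant Rpb1 was either wild-type (5 libraries) or R749H, a slow Pol II mutant (4 libraries). The sample titles of all 9 libraries call it Avitag Rpb1, whereas the paper's methods name no tag for these libraries. Which tag was present could not be checked. Cells of both groups received doxycycline (2 µg/ml, 24 hr in the sample labels and a shorter time in the paper) to induce the resistant Rpb1, and then α-amanitin (2.5 µg/ml, 42 hr), which inhibits the endogenous Pol II. Each group is 1 stable transfected cell line, so the mutation and other differences between these lines cannot be told apart, and p-values measure only the spread between these libraries, which the paper calls biological replicates without naming separate cultures. The 3' ends of endogenous POLR2A do not report on the plasmid, so the labels could not be checked by the mutated gene.

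α- and β-tubulin form the heterodimers that polymerize into microtubules, the filaments of the mitotic spindle and of intracellular transport, and γ-tubulin sits in the ring complex from which microtubules grow. Vertebrate cells carry several α- and β-tubulin genes, called isotypes, with different tissue patterns; TUBB3, for instance, is best known from neurons, and TUBB is the isotype of most dividing cells. Tubulin mRNAs are known to be degraded during translation when free tubulin dimers are in excess, a process called autoregulation, and the newly made proteins need the prefoldin and CCT chaperones and the tubulin cofactors to fold.

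The depth was 2479851 to 10135014 recovered reads in the wild-type and 3863468 to 6475987 in the R749H libraries. R749H replicate 3 stood apart, with only 1 read at 6.60% of its isoforms (30% to 36.2% elsewhere), and the changes of the tubulin genes called below are therefore also given without it. Of 6 genes that HEK293 cells are known to express, VIM, KRT8, KRT18 and INA had reads in every library, and NEFL and NEFM were not listed. Their summed level, in reads scaled to a common library size (RPM), was 508.5 to 793 in wild-type and 618 to 1036 in R749H libraries. Of these 4 genes, VIM changed, with a log2 change of −0.66 in R749H cells (limma, adjusted p = 0.0172).

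The sequences that end at the main 3' end of each tubulin gene are shown first, because every value below counts RNAs that end at or near these bases. Each line is the last 30 bases before cleavage, on the sense strand of hg19 (GRCh37), with the poly(A) signal AATAAA or its variant ATTAAA in capitals where the window holds one. The second end of TUBB2B and of TUBB6 is added, because these genes have a distant end with a measurable share of reads.
TUBA1A, 208 nt after the stop codon, chr12:49578585-49578614, minus strand: atgggttttgAATAAAgtattccctgtctt
TUBA1B, 172 nt after the stop codon, chr12:49521569-49521598, minus strand: atcatatctcaaagtaaagtcattaacatc
TUBA1C, 1372 nt after the stop codon, chr12:49668353-49668382, plus strand: gtcagtctttAATAAAgtattagtcacacg
TUBB, 179 nt after the stop codon, chr6:30692324-30692353, plus strand: agtaggcgctcAATAAAtacttgtttgttg
TUBB2A, 193 nt after the stop codon, chr6:3153904-3153933, minus strand: gtatctatactAATAAAaaagcatgtgtag
TUBB2B, 253 nt after the stop codon, chr6:3224732-3224761, minus strand: tggctaaaatcacataaacgtttgtgtcgg
TUBB2B, 468 nt after the stop codon, chr6:3224517-3224546, minus strand: ttttaaaatacctttAATAAAtattagttg
TUBB3, 287 nt after the stop codon, chr16:90002470-90002499, plus strand: ggatacttAATAAAtctattgctgtcagat
TUBB6, 438 nt after the stop codon, chr18:12326538-12326567, plus strand: ttcatAATAAAatactaaacgtgtgtcttc
TUBB6, 3693 nt after the stop codon, chr18:12329793-12329822, plus strand: aacaattttcATTAAAtacagttactcagc
TUBG1, 195 nt after the stop codon, chr17:40767225-40767254, plus strand: ttatctttAATAAAgcactggatataaatc

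AATAAA stood in the window of the main end in 7 of the 9 genes. Among the main ends of all 9494 genes tested, 65.0% had AATAAA and a further 16.3% had ATTAAA without AATAAA. The main ends of TUBA1B and TUBB2B held neither, whereas the more distant end of TUBB2B held AATAAA and that of TUBB6 held ATTAAA. All of the ends shown lie in annotated 3' UTRs of their gene. The last 77 bases before each end, the longest read the authors mapped, occur once in the genome, so reads of this length from one tubulin gene do not match another there without mismatches. The authors excluded mismatches only in the first 30 nt of a read. The last 30 bases before the main end of TUBB3 occur at 2 places in the genome, and those before the other ends shown occur once. Where shorter reads of that TUBB3 end were mapped was not tested. The annotation places a readthrough transcript that contains TUBB3 on the same strand, with an exon that covers the main end of TUBB3, and reads of the 2 cannot be told apart.

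Levels are given as RPM with TMM factors, which correct for differences in composition between libraries. A 3' READS read marks 1 mRNA end, so levels of different genes can be compared without a correction for length. The authors dropped reads whose As could all come from the genome, so recovery may still differ between ends. This was not tested. Fewer RNA molecules per cell and a different amount of total RNA per cell cannot be told apart on this scale. All 9 genes passed the filter on low values. The test was limma on log2 values, with p-values adjusted over all 9494 genes, and a change means that the adjusted p was under 0.05.

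TUBA1B, a main α-tubulin of dividing cells, rose in R749H cells and was the α-tubulin with by far the most reads in both cell lines. It had 797, 632, 449.8, 808 and 829 RPM in wild-type replicates 1 to 5 and 1335, 947, 820.2 and 1044 in R749H replicates 1 to 4. R749H replicates 1, 2 and 4 lay above every wild-type library, and R749H replicate 3 lay within the wild-type range. The means were 703 ± 162 (SD, n = 5) and 1037 ± 219 (SD, n = 4), and the log2 change was 0.57 ± 0.20 (SE; limma, adjusted p = 0.0436). Without R749H replicate 3 it was 0.70 (adjusted p = 0.0267). This call was close to the threshold: it was lost without wild-type replicates 2, 3 or 4 (adjusted p = 0.0956, 0.123 and 0.0515) and without R749H replicates 1, 2 or 4 (adjusted p = 0.125, 0.0746 and 0.0871). It was lost too under the authors' scaling alone (0.23, adjusted p = 0.381).

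TUBA1A, an α-tubulin of postmitotic neurons, and TUBA1C, another α-tubulin found in many tissues, had few reads in both cell lines. No change of these genes passed the test. TUBA1A had 27.3, 5.44, 8.50, 3.38 and 4.91 RPM in wild-type replicates 1 to 5 and 2.79, 4.12, 3.20 and 5.32 in R749H replicates 1 to 4. The groups overlapped, with wild-type replicate 1 far above the other 8 libraries, and the log2 change was −0.91 ± 0.44 (limma, adjusted p = 0.137). Without that library it was −0.46 (adjusted p = 0.335). It passed the threshold with DESeq2 (−1.31, adjusted p = 0.0387) and under the authors' scaling alone (−1.23, adjusted p = 0.0469).
TUBA1C had 2.89, 2.93, 3.43, 1.83 and 1.93 RPM in wild-type replicates 1 to 5 and 3.66, 4.67, 0 and 0.92 in R749H replicates 1 to 4. R749H replicate 3 had 0 reads, which allows a level of up to 0.799 RPM by counting error alone. This limit may be too low, because only 6.60% of the isoforms of that library had 1 read. The log2 change was −0.71 ± 0.60 (limma, adjusted p = 0.407), and without R749H replicate 3 it was 0.06 (adjusted p = 0.939). An annotated end of TUBA1C at chr12:49667117 had 0 reads within 24 nt in every library. Of the 117 TUBA1C reads, 108 lay within 24 nt of the more distant annotated end at chr12:49668383. Whether RNAs with the nearer end were missed was not tested.

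Among the β-tubulins, 2 isotypes fell and 2 rose in R749H cells, and TUBB6 did not pass the test. TUBB, the most abundant of the 9 genes in wild-type cells, had 1731, 2857, 2477, 2919.9 and 2979 RPM in wild-type replicates 1 to 5 and 1457, 946, 869 and 891 in R749H replicates 1 to 4. Every R749H library lay below every wild-type library, and the closest pair was R749H replicate 1 and wild-type replicate 1. The mean was 2593 ± 520 (SD, n = 5) in wild-type and 1041 ± 279 (SD, n = 4) in R749H cells, which gave a log2 change of −1.32 ± 0.20 (limma, adjusted p = 0.00019). Without R749H replicate 3 the change was −1.22, and it passed under all 18 distinct alternatives tried.

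TUBB2B, an isotype known from the developing nervous system, fell by a similar amount. Its levels were 135, 209, 237, 177 and 317 RPM in wild-type replicates 1 to 5 and 85.4, 66.5, 85.4 and 86.7 in R749H replicates 1 to 4. The R749H libraries lay close together below all wild-type libraries, which spread over a wider range. The mean was 215 ± 68.4 in wild-type and 81.0 ± 9.70 in R749H cells (SD), and the log2 change was −1.36 ± 0.21 (limma, adjusted p = 0.00023). Without R749H replicate 3 it was −1.36, and the call held under all 18 distinct alternatives tried.

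TUBB3, best known as a neuronal isotype, rose about 4-fold, the largest change of the 9 genes. It had 33.0, 34.7, 30.7, 34.9 and 41.0 RPM in wild-type replicates 1 to 5 and 108, 176, 143 and 135 in R749H replicates 1 to 4. The lowest R749H library exceeded the highest wild-type library by far, and the groups did not overlap. The means were 34.9 ± 3.82 and 141 ± 28.2 (SD), with a fold of 3.96 on the fitted log2 scale, that is a log2 change of 1.98 ± 0.18 (limma, adjusted p = 1.17e-06). It was 1.99 without R749H replicate 3, and the call held under all 18 distinct alternatives tried.

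TUBB2A, the close relative of TUBB2B, rose while TUBB2B fell. TUBB2A had 64.8, 85.4, 94.0, 84.4 and 58.9 RPM in wild-type replicates 1 to 5 and 109, 142, 117 and 109.8 in R749H replicates 1 to 4. The groups did not overlap, although wild-type replicate 3 came near the lowest R749H library. The means were 77.5 ± 14.9 and 119.5 ± 15.6 (SD), and the log2 change was 0.64 ± 0.18 (limma, adjusted p = 0.0173). It was 0.67 (adjusted p = 0.026) without R749H replicate 3, and the call was lost without R749H replicate 2 (0.57, adjusted p = 0.0656) and under the authors' scaling alone (0.30, adjusted p = 0.213). The stop codons of TUBB2A and TUBB2B lie 70.9 kb apart on chromosome 6. The 27 tested genes within 5 Mb of this pair had a median log2 change of −0.34, with 6 lower and 0 higher.

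TUBB6, a β-tubulin expressed in many tissues, had 82.1, 81.4, 68.5, 90.0 and 150.3 RPM in wild-type replicates 1 to 5 and 80.2, 74.4, 100.9 and 71.2 in R749H replicates 1 to 4. The groups overlapped, with a log2 change of −0.17 ± 0.21 (limma, adjusted p = 0.601) and a 95% interval of −0.61 to 0.28. Without wild-type replicate 5, its highest library, the change was 0.01 (adjusted p = 0.976).
TUBG1 had 107, 137, 96.3, 166 and 195 RPM in wild-type replicates 1 to 5 and 138, 136, 137 and 155 in R749H replicates 1 to 4. All R749H libraries lay inside the wild-type range, and the log2 change was 0.06 ± 0.20 (limma, adjusted p = 0.86), with a 95% interval of −0.36 to 0.48. Under the authors' scaling alone, which moved all genes, it was −0.28 (adjusted p = 0.262), and relative to the median of all genes it was 0.12 with TMM factors and 0.105 under that scaling.

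**Figure D1:**
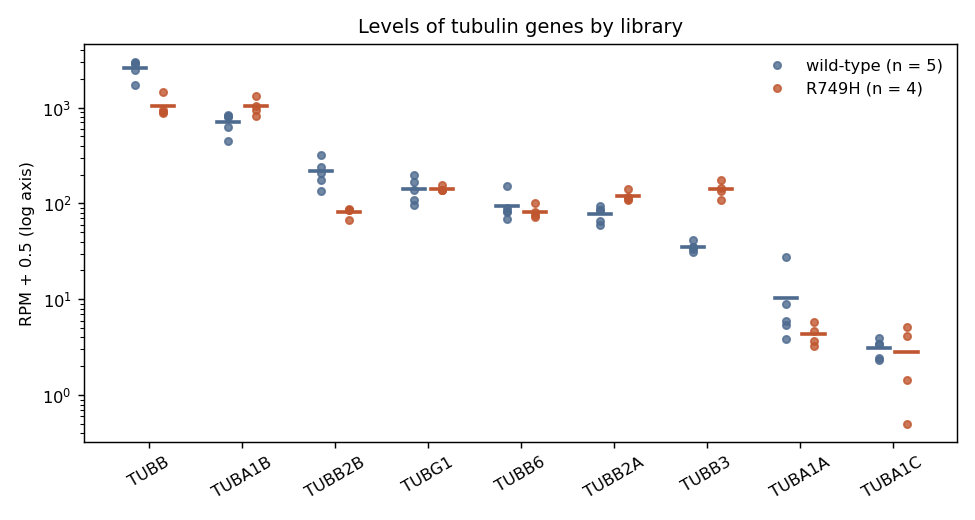
Level of each tubulin gene in every library, as RPM plus 0.5 on a log axis, for wild-type (blue, n = 5) and R749H cells (orange, n = 4), with a bar at the mean. TUBB and TUBB2B lie lower and TUBB3 and TUBB2A lie higher in all R749H libraries than in all wild-type libraries.

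Of the 9 genes, 3 rose and 2 fell, against a background of 11.3% of all 9494 tested genes that rose and 13.8% that fell. The libraries of the groups did not overlap for 4 of the 9 genes, against 19.9% of all tested genes. The median of all tested genes was −0.06 with TMM factors and −0.39 under the authors' scaling alone, in which 14.0% of the 3180 calls were higher in R749H cells, against 45.0% of the 2380 calls with TMM factors. Relative to these medians, TUBB3 was 2.04 and 2.03 higher, TUBA1B 0.63 and 0.62 higher, TUBB2A 0.70 and 0.68 higher, TUBB 1.26 and 1.28 lower, and TUBB2B 1.29 and 1.31 lower on the log2 scale.

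In order of mean level in wild-type cells, TUBB came first, then TUBA1B, TUBB2B, TUBG1, TUBB6, TUBB2A, TUBB3, TUBA1A and TUBA1C. The libraries of TUBB2B and TUBG1, of TUBG1 and TUBB6, of TUBB6 and TUBB2A, and of TUBA1A and TUBA1C overlapped. Within the same library, however, TUBB2B exceeded TUBG1, TUBG1 exceeded TUBB6 and TUBA1A exceeded TUBA1C in 5 of 5 wild-type libraries, whereas TUBB6 exceeded TUBB2A in 3 of 5. In R749H cells the order was TUBB, TUBA1B, TUBG1, TUBB3, TUBB2A, TUBB6, TUBB2B, TUBA1A and TUBA1C. There, TUBB and TUBA1B overlapped, as did TUBG1 and TUBB3, TUBB3 and TUBB2A, TUBB6 and TUBB2B, and TUBA1A and TUBA1C. The first gene of each pair was higher in 2 of 4 R749H libraries, or in 3 of 4 for TUBB3 over TUBB2A, so the order within these pairs was not uniform. TUBB3 moved from rank 7 to rank 4, and TUBB2B from rank 3 to rank 7.

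Shares among the β-tubulin reads do not depend on the scaling of a library, and they show which isotypes made up the β-tubulin mRNA. TUBB held 56.8%, 67.5%, 64.9%, 68.4% and 63.5% of these reads in wild-type replicates 1 to 5 and 40.1%, 31.6%, 30.7% and 31.3% in R749H replicates 1 to 4. TUBB was thus the most abundant β-tubulin mRNA in every wild-type library, and in every R749H library it came after TUBB4B, a β-tubulin gene outside the 9 that is expressed in many tissues. TUBB4B held 24.8% ± 4.38 (SD, n = 5) of the β-tubulin reads in wild-type and 52.3% ± 2.41 (SD, n = 4) in R749H cells. Its level rose from 976 ± 84.2 to 1602 ± 119 RPM, a log2 change of 0.72 (limma, adjusted p = 0.00255; 0.77 without R749H replicate 3), which missed the threshold under the authors' scaling alone (0.37, adjusted p = 0.0511).

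The shares of TUBB3, TUBB2A and TUBB2B moved in the same direction as their levels. TUBB3 held 0.881% ± 0.117 of the β-tubulin reads in wild-type and 4.66% ± 1.23 in R749H cells (SD), and TUBB2A held 1.97% ± 0.442 and 3.93% ± 0.726. TUBB2B held 5.30% ± 1.13 and 2.66% ± 0.434. For each of these 3 isotypes the wild-type and R749H libraries did not overlap. TUBB6 held 2.35% ± 0.59 and 2.69% ± 0.601, and its libraries overlapped.

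**Figure D2:**
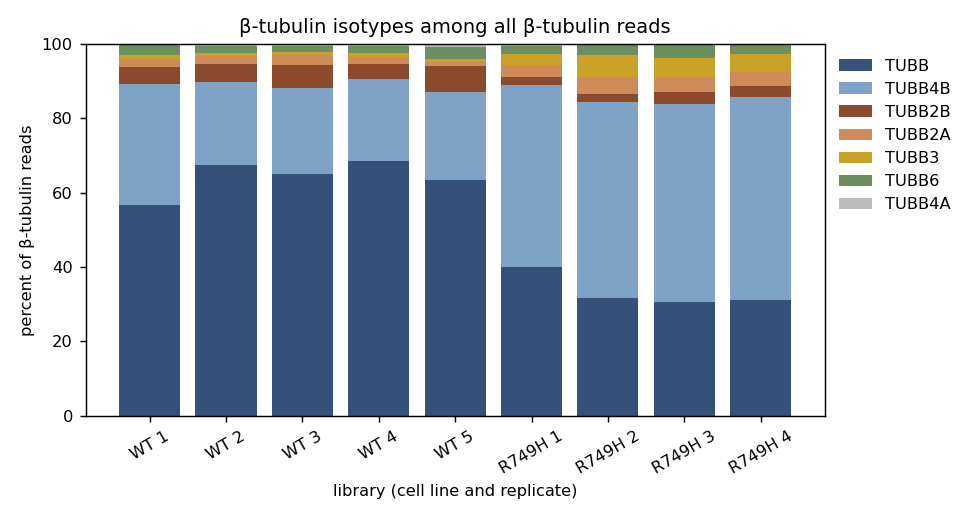
Percent of all β-tubulin reads that came from each β-tubulin gene, as stacked bars from 0 to 100 for each of the 9 libraries. TUBB takes 56.8% to 68.4% of the bar in wild-type and 30.7% to 40.1% in R749H libraries, and TUBB4B is the larger part in every R749H library.

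The summed level of all 8 β-tubulin genes with reads was 4010 ± 622 RPM in wild-type and 3077 ± 380 in R749H cells, and the libraries overlapped. The sum of the 5 α-tubulin genes with reads was 719.5 ± 162 and 1050 ± 221, of which TUBA1B made up 97.6% ± 1.3 and 98.8% ± 0.253. The ratio of β- to α-tubulin reads was 3.68, 6.56, 8.17, 5.22 and 5.58 in wild-type replicates 1 to 5 and 2.70, 3.12, 3.41 and 2.69 in R749H replicates 1 to 4. Every R749H library had a lower ratio than every wild-type library, and wild-type replicate 1 lay closest to the R749H libraries. These sums and ratios are descriptions, with no test, and TUBA1C enters them mostly through its distant end.

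The next question was whether the 3' ends within each tubulin gene moved, since the study addressed the position of cleavage in cells with slow Pol II. The paper states, citing earlier work, that R749H often shifts 3' ends upstream. With replicates pooled, it reports R749H to wild-type ratios that decline along closely spaced ends. The shares below are another measure, compared between libraries, and do not test that decline. Reads of TUBB2A and TUBA1B ended almost only at 1 position, which held 97.6% and 98.5% of all their reads, whereas TUBB3 had its main end at 45.5% and a second end 6 nt further downstream. TUBB had 90.3% of its reads at its main end, TUBG1 80.0%, TUBB2B 76.0%, TUBB6 73.1%, TUBA1A 68.7% and TUBA1C 67.5%. No tubulin gene passed the threshold in any of 3 tests of shares: 0 of 8 genes for the share of reads downstream of the median 3' end, against 0.0902% of all 7757 genes; 0 of 15 isoforms, against 0.032% of all 12508; and 0 of 10 clusters, against 0.0628% of all 6367. A cluster joins isoforms no more than 4 nt apart. At an unadjusted p under 0.05 there were 1, 3 and 3 of them, against 10.4% of all genes, 8.7% of all isoforms and 12.1% of all clusters. The gene was TUBB6. The 3 isoforms and the 3 clusters were the same ends, TUBB6 at 438 and 3693 nt and TUBB2B at 253 nt, so these counts are not separate results. TUBA1C had too few reads to be tested.

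TUBB6 had the lowest p-values of the 9 genes in all 3 tests. The share of its reads downstream of position 438 was 16.4%, 15.7%, 17.7%, 16.5% and 14.5% in wild-type replicates 1 to 5 and 22.2%, 26.6%, 24.9% and 26.9% in R749H replicates 1 to 4. Every R749H library lay above every wild-type library, and the log2 odds differed by 0.80 ± 0.16 (SE), which did not pass after adjustment (limma, adjusted p = 0.0856). The adjusted p was 0.0662 to 0.274 under the alternatives, and it was 0.0917 without R749H replicate 3.

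The difference lay at the distant ends. The 8 isoforms 3676 to 3706 nt after the stop codon of TUBB6, around the ATTAAA sequence shown above, held 4.69%, 7.46%, 5.73%, 6.80% and 6.42% of its reads in wild-type replicates 1 to 5. In R749H replicates 1 to 4 they held 13.5%, 20.3%, 15.1% and 16.9%. The mean share was 6.22% ± 1.06 (SD, n = 5) in wild-type and 16.4% ± 2.93 (SD, n = 4) in R749H cells, with no overlap. This group of ends was outlined after its values were seen and has no test of its own. Its largest isoform, 3693 nt after the stop codon, held 3.86% ± 0.752 and 9.23% ± 1.04 (log2 odds 1.34 ± 0.25; limma, adjusted p = 0.157 as an isoform and 0.112 as a cluster). The main end, 438 nt after the stop codon, held 76.4% ± 1.91 and 65.7% ± 3.38 (log2 odds −0.76 ± 0.13; adjusted p = 0.118 as an isoform and 0.082 as a cluster). Another end at 446 nt held 8.33% ± 1.48 and 8.19% ± 1.62, with overlapping libraries.

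TUBB2B also had a distant group of ends, but its libraries overlapped. The 10 isoforms 467 to 491 nt after its stop codon, at the AATAAA sequence, held 15.5% ± 2.47 in wild-type and 20.9% ± 6.04 in R749H cells, where R749H replicate 3 was highest at 29.4%. The main end at 253 nt held 76.6% ± 2.53 and 71.3% ± 4.74 (limma, adjusted p = 0.543). TUBB, whose mean level fell by the most RPM of the 9 genes, had 3' end shares whose libraries overlapped between the cell lines: its main end at 179 nt held 90.5% ± 1.55 and 90.6% ± 0.379, and the isoforms near its distant annotated ends, 1019 to 1030 nt after the stop codon, held 0.161% ± 0.0681 and 0.214% ± 0.127. TUBB3, whose level rose most in fold terms, had 44.9% ± 1.24 and 46.1% ± 5.60 at 287 nt and 35.8% ± 2.31 and 37.2% ± 3.92 at 293 nt. The 95% interval of the log2 odds at 287 nt was −0.29 to 0.43.

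**Figure D3:**
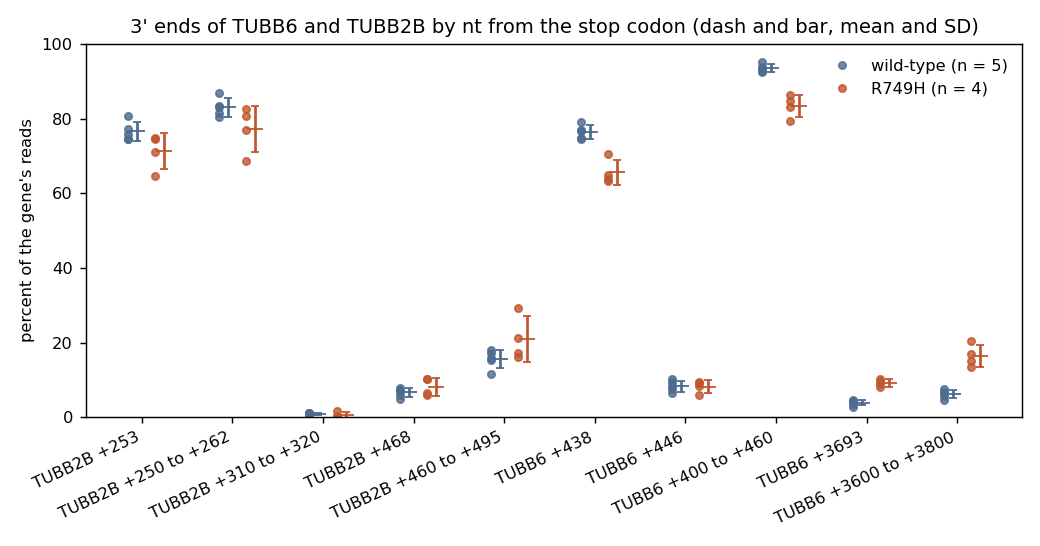
Percent of each gene's reads at single 3' ends and in groups of ends of TUBB2B and TUBB6, named by nt from the stop codon, for every wild-type (blue, n = 5) and R749H library (orange, n = 4), with mean and SD. The distant ends of TUBB6 lie at 4.69% to 7.46% in wild-type and at 13.5% to 20.3% in R749H libraries.

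Genes that act on tubulin and other tubulin genes were taken from 6 lists, of whose 81 entries 62 were tested. Of these, 12 rose (19.4%) and 6 fell (9.7%) in R749H cells, against 11.3% and 13.8% of all tested genes. Under the authors' scaling alone, which moved the median of all genes to −0.39, 5 rose and 12 fell. With that scaling 3180 of all 9472 tested genes were called, only 446 of them higher in R749H cells. Among the 20 tested genes for tubulin folding, 5 rose and 1 fell, with a median log2 change of 0.24 against −0.06 for all genes. PFDN4, a prefoldin subunit, rose from 41.2 ± 5.53 to 85.8 ± 6.92 RPM (log2 change 1.06; limma, adjusted p = 0.00036). CCT8, a CCT chaperonin subunit, rose by 1.05 (adjusted p = 0.00202), the prefoldin subunit PFDN1 by 0.84 (adjusted p = 0.00484), and the tubulin cofactor TBCC by 0.70 (adjusted p = 0.0375), of which TBCC missed the threshold under the authors' scaling alone (0.36, adjusted p = 0.228) and without wild-type replicate 1 (0.59, adjusted p = 0.067). ARL2, a small GTPase that works with the tubulin cofactors and was singled out after its value was seen, fell from 142 ± 32.6 to 93.3 ± 17.1 RPM (adjusted p = 0.0411), with overlapping libraries and a call lost without R749H replicate 3 and without wild-type replicate 1. Under the authors' scaling alone, 3 of the folding genes rose, 3 fell, and the median was −0.11, which lay 0.28 above the median of all genes, as against 0.30 with TMM factors.

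Of the autoregulation genes, SCAPER and CNOT11 were tested and neither passed (log2 changes 0.28 and 0.14; adjusted p = 0.527 and 0.682), and TTC5, the factor that recognizes nascent tubulin, had too few reads. Of the 7 tested genes of the γ-tubulin ring complex, 2 rose and none fell: MZT2A by 0.55 and MZT2B by 0.54 (limma, adjusted p = 0.016 and 0.0208), while neither passed under the authors' scaling alone (0.21 and 0.20). These are near-identical copies whose reads could be split between them. The tubulin modification list had 13 tested genes, of which 1 rose and 2 fell. TTLL7, a tubulin polyglutamylase, rose from 2.21 ± 0.414 to 6.29 ± 3.20 RPM (adjusted p = 0.0155), a call that missed the threshold under the authors' scaling alone (0.95, adjusted p = 0.0578). VASH1, which removes the terminal tyrosine of α-tubulin, fell from 13.1 ± 2.82 to 6.07 ± 1.89 (adjusted p = 0.00778). CCDC23, the older symbol of its partner SVBP, fell from 6.02 ± 2.06 to 1.15 ± 1.09 (adjusted p = 0.00252). It had 0 RPM in R749H replicate 3, and its log2 change was −2.35 with that library and −1.78 without it.

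Of the 14 tested genes of microtubule dynamics, 2 rose and 2 fell. MAPRE1, the plus-end binding protein EB1, rose by 1.52 on the log2 scale (limma, adjusted p = 0.00138). DPYSL2, a tubulin-binding protein of growing axons, fell by 1.23 (adjusted p = 0.0114) and MAPT, which encodes tau, fell by 1.08 (adjusted p = 0.0142), with overlapping libraries and a call lost without R749H replicate 3 (−0.78, adjusted p = 0.0503). Of the 6 other tubulin genes tested, TUBA4A rose from 1.43 ± 0.369 to 6.13 ± 2.26 RPM (adjusted p = 0.00145), TUBB4B rose as given above, and TUBA8 fell from 2.47 ± 0.813 to 0.594 ± 0.685, with overlapping libraries (adjusted p = 0.0205). Without R749H replicate 3, the counts of genes that rose and fell were 12 and 4 over all lists, 5 and 0 for folding, 2 and 0 for the ring complex, 1 and 2 for modification, 2 and 1 for dynamics and 2 and 1 for the other tubulins. Over all 9763 genes tested without that library, 2117 were called, 998 of them higher in R749H cells. The counts of these lists were not tested against the other genes.

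**Figure D4:**
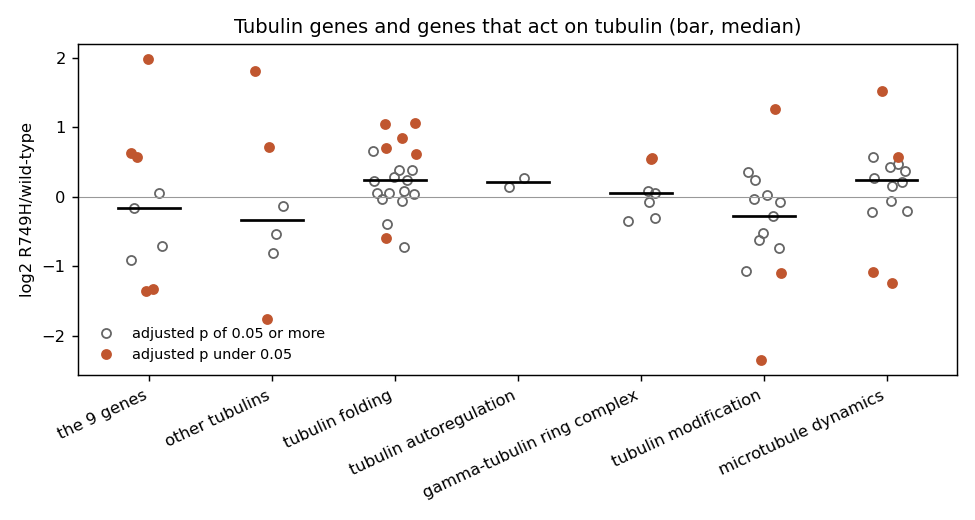
Log2 change, R749H over wild-type, of each tested gene among the 9 tubulin genes and in the 6 lists, with filled points for an adjusted p under 0.05 and a bar at each median. TUBB3 is the highest of the 9 genes at 1.98, and the folding genes have their median at 0.24.

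The genes around each tubulin gene were examined as a description of the chromosome regions. Within 5 Mb, the median log2 change was 0.16 for the 130 tested neighbours of TUBB, which itself changed by −1.32, and −0.29 for the 86 neighbours of TUBA1B, which changed by 0.57. The 41 neighbours of TUBB3 had a median of 0.34, with 13 higher and 5 lower, on the same side as TUBB3 but smaller than its change of 1.98. The 23 neighbours of TUBB6 had a median of −0.39, with 5 lower and none higher. The 117 neighbours of TUBG1 had a median of −0.52, with 6 higher and 42 lower, and TUBG1 itself lay at 0.06. Among all 9494 tested genes, 11.3% were higher and 13.8% were lower in R749H cells. MAPT, from the microtubule dynamics list, is among the neighbours of TUBG1. The part of regional differences between the cell lines in the changes of the tubulin genes and of the listed genes was not tested.

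**Figure D5:**
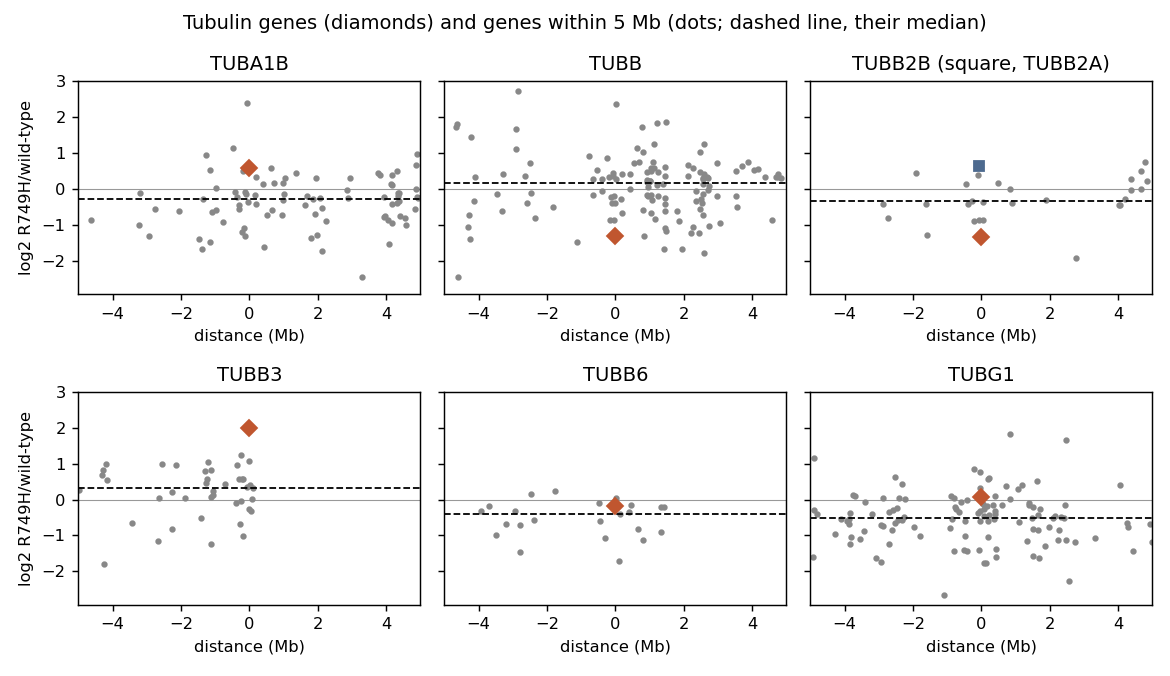
Log2 change, R749H over wild-type, of tested genes (grey dots) by distance in Mb from 6 tubulin genes (orange diamonds), with a dashed line at the median of the neighbours. TUBB, TUBA1B, TUBG1 and TUBB2A (blue square) lie on the other side of 0 from the median of their neighbours. TUBB2B, TUBB3 and TUBB6 lie on the same side as that median, and TUBB3 lies above all of its neighbours.

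The genes most like the leading α- and β-tubulin were found by Pearson's r of log2 RPM over the 9 libraries, among 9485 other genes, as a description with no test. For TUBB they were SLC1A4 (r = 0.991), MNT (r = 0.986) and FAM69B (r = 0.984). All of these fell in R749H cells at an adjusted p under 0.05. For TUBA1B they were AHNAK2 (r = 0.947), TYK2 (r = 0.944) and U2AF1 (r = 0.93). AHNAK2 had few reads, with means of 1.37 RPM in wild-type and 3.81 in R749H cells. TYK2 and U2AF1 did not pass the threshold between the cell lines (limma, adjusted p = 0.266 and 0.057). The 9 points share the split into cell lines and the depth and composition of each library.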

How the data were processed

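The 9 genes and the gene lists were chosen with earlier results of these data known. The authors trimmed 4 random nt and leading Ts, mapped reads of at most 77 nt to hg19 (Bowtie2 2.3.2 in the submitters' processing notes), kept those with non-templated As, and gave each 3' end to the CCDS entry whose stop codon lay within 5 kb before it. The deposited values are a signal, the reads of each isoform after the authors set every library to 7 M poly(A) reads. Dividing each library by its value per read gave whole reads (within 0.1 reads) for 100% of values. Intervals of reads cover counting error only, and no molecular identifiers are named for these libraries.

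Gene levels were tested with limma 3.58.1 on log2 RPM (TMM factors of edgeR 4.0.16, prior count 2, filterByExpr), with Benjamini-Hochberg adjustment over all genes and a threshold of 0.05. Shares were tested with limma on log2 odds with 0.5 reads added, for a mean of at least 20 reads. Isoforms had to exceed 5% of the gene's largest in both cell lines. On the same reads, edgeR called 2358 genes and DESeq2 1.42.0 called 2653, against 2380 with limma. Tests were tried on simulated data. Named genes were all 9 tubulin genes, up to 4 called genes with the largest change in each list, and the 3 genes most alike the leading α- and β-tubulin. 1 named gene of the microtubule dynamics list is not reported here. Alternatives were RLE factors, the authors' scaling alone, other filters, prior counts, divisions and spacings, thinned libraries, a replicate block and each library left out. Sequences and annotation came from GRCh37 and GENCODE. The 4 eNETseq libraries and the 2 tables of pooled replicates were not used here. The labels give no batch or date.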

Additional observations from a re-analysis of the deposited data

Results flagged for a closer look

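Within-group values were screened for a single library far from the rest, by its gap to the nearest library relative to the range of the group. Of 92 groups of values examined, 9 had such a library. The cutoff was meant to flag about 5% of groups by chance, if values are normal and groups independent. Levels, shares and sums of the same genes share reads, so the 9 flagged groups cannot be compared with that 5%. TUBA1A had 27.3 RPM in wild-type replicate 1, against 3.38 to 8.50 in the other wild-type libraries. TUBB6 had 150.3 in wild-type replicate 5, against 68.5 to 90.0 in the others. TUBB had 1457 RPM in R749H replicate 1, against 869 to 946 in the other R749H libraries, and 40.1% of the β-tubulin reads, against 30.7% to 31.6%. TUBB2B had 66.5 in R749H replicate 2, against 85.4 to 86.7, and TUBG1 had 155 in R749H replicate 4, against 136 to 138. TUBB3 held 1.08% of the β-tubulin reads in wild-type replicate 1, against 0.806% to 0.875%. The main end of TUBB2A held 95.8% of its reads in wild-type replicate 2, against 97.5% to 98.1%, and the main end of TUBG1 held 87.0% in R749H replicate 3, against 77.2% to 78.7%.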

How the results depend on the processing

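The falls of TUBB and TUBB2B and the rise of TUBB3 passed the threshold under all 18 distinct alternatives tried for each. No isoform had more than 1 gene name, so assigning ends to 1 gene changed nothing and is not counted. TUBB2A lost its call under 2 of 18 alternatives and TUBA1B under 9 of 18, as given above and with no filter on low values (0.55, adjusted p = 0.0964) or a mean of at least 50 reads (0.53, adjusted p = 0.0508). The cause was not tested. Under the authors' scaling alone, which moved the median of all genes from −0.06 to −0.39, TUBG1 was −0.284, and relative to the median it was 0.12 before and 0.105 after. Leaving out 1 library at a time gave log2 changes of −1.22 to 0.0561 for TUBA1C, −0.274 to 0.01 for TUBB6 and −0.07 to 0.185 for TUBG1, none past the threshold, and 1637 to 2750 genes called in all. For shares, called features numbered 7 genes, 4 isoforms and 4 clusters. Division at the midpoint called 1 gene. Leaving out 1 library called 4 to 24 genes (4 without wild-type replicate 1, 2 or 3, 24 without R749H replicate 1 and 17 without R749H replicate 3), 4 to 11 isoforms (11 without R749H replicate 1) and 3 to 10 clusters (10 without R749H replicate 1 and 9 without R749H replicate 3). None was of a tubulin gene.

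Small uncalled differences in log2 odds changed sign. The downstream share turned to 0.122 for TUBG1 at the midpoint and to 0.294 for TUBA1B with 0.1 reads added. Without 1 library at a time it ranged from −0.45 to 0.583 for TUBA1B, −0.16 to 0.468 for TUBB2A, −0.00595 to 0.207 for TUBB3 and −0.249 to 0.175 for TUBG1. In the same way, isoform shares ranged from −0.0749 to 0.106 and −0.0888 to 0.082 for TUBB at 178 and 179 nt, −0.00569 to 0.229 and −0.022 to 0.17 for TUBB3 at 287 and 293 nt, −0.122 to 0.134 for TUBB6 at 446 nt, and −0.217 to 0.0834 and −0.111 to 0.215 for TUBG1 at 190 and 195 nt. Cluster shares ranged from −0.196 to 0.0296 and −0.022 to 0.17 for TUBB3, −0.122 to 0.134 for TUBB6 at 446 nt, and −0.217 to 0.0834 and −0.111 to 0.215 for TUBG1.

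No pairing by replicate number is stated, and same-numbered libraries had correlations of deviations from −0.0824 to 0.0477. These correlations alone cannot settle whether libraries of the same number were handled together. With a replicate block over replicates 1 to 4, 2226 genes were called for expression (2327 without the block on the same libraries, the fit that leaves out wild-type replicate 5), with TUBB6 at 0.00967 in both fits, and 21 genes, 2 isoforms and 4 clusters were called for shares. Under the replicate block, the downstream share was 0.175 for TUBA1B and 0.0507 for TUBG1, and the isoform share was −0.0888 for TUBB at 179 nt. The 6 lists of other tubulins and of genes that act on tubulin were repeated under 4 settings chosen after seeing the data. The calls of named genes that were lost are given with them.

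Depth limits TUBA1A and TUBA1C most: TUBA1A had 12 to 85 reads and TUBA1C 0 to 21 reads per library, and TUBB6 had 256 to 986 reads for its shares.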
